A study of Mus musculus with 2 samples.

Results

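The genes described here are 35 mouse genes of the chromosome 16 interval that matches the segment deleted in human 22q11.2 deletion syndrome, with Tbx1 among them. Their selection rule is a list of symbols and uses no measured value, and each symbol matched a single row among the 27998 genes counted. They were read in 2 single-cell libraries made in droplets from the pharyngeal apparatus and heart of Swiss Webster embryos at E9.5. Live GFP-positive cells had been sorted, and transcripts were counted at their 3′ ends as unique molecular identifiers (UMIs). The library labelled Ctrl came from Mesp1Cre;Rosa26-GFPflox/+ embryos, and the library labelled cKO from Mesp1Cre;Rosa26-GFPflox/+;Tbx1flox/flox embryos. Both therefore carry the Cre driver, which acts in early mesoderm and its descendants, and the GFP reporter it switches on, and they differ in the floxed Tbx1 alleles. Each library was made from pooled embryos, and by the sample list of the study the embryos of the cKO pool had slightly more somites than those of the Ctrl pool, so that genotype, stage and library cannot be told apart. With 1 library per group there was no replicate check and no test between genotypes, so a difference given here is one between these libraries, not shown to be one between genotypes, and every interval is a 95% interval that covers counting error only.

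In people, a heterozygous deletion of this segment is linked to defects of the cardiac outflow tract, the thymus and parathyroid glands, the palate and the muscles of the face and neck. Most of the phenotype in the pharyngeal apparatus has been attributed to TBX1, a T-box transcription factor that acts in the pharyngeal endoderm, ectoderm and mesoderm. The neighbouring genes are unrelated in sequence and code for proteins of many kinds, including a histone chaperone (Hira), a core component of microRNA processing (Dgcr8), an adaptor for growth factor receptors (Crkl), a replication factor (Cdc45) and several mitochondrial proteins. The cardiopharyngeal mesoderm, which supplies the second heart field and the branchiomeric muscles, is the tissue in which the driver would remove Tbx1 here.

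After removal of poor cells and presumed doublets, 6591 cells of the library labelled Ctrl and 8969 of the library labelled cKO were kept, with medians of 16854 and 14189 UMIs per cell and totals of 117502907 and 136626576 UMIs. Levels are given as UMIs per 1000000 UMIs of the same cells (CPM), which for 3′ tags counts molecules and needs no correction for transcript length. The 35 genes did not enter the clustering. Clusters were named from marker lists, and 6 classes were compared. MLP-like stands for multilineage primed progenitors and BrM-like for progenitors of branchiomeric muscle. The SoM/aSHF-like class is named for somatic mesoderm and the anterior part of the second heart field, and the pSHF-like class for its posterior part. The SoM/aSHF-like clusters all met Msx1, Msx2 and Epha3, which the study used for somatic mesoderm. How much anterior heart field the class holds was not tested. CM-like cells are cardiomyocytes, and the last class is endothelium-like. Paraxial mesoderm-like, epicardium-like, megakaryocyte-like and myeloid-like cells were also found in both libraries, erythroid-like cells (151) were found in the library labelled cKO alone, and 23.6% and 31.7% of cells lay in clusters left unnamed. The erythroid marker genes summed to 7.17 CPM in the library labelled Ctrl and 5787 CPM in the library labelled cKO, and the share of kept cells with Y-linked but no Xist UMIs was 40.2% and 31.1%. Of all barcodes, 15 occurred in both libraries. Across all measured genes in all kept cells the median log2 ratio of cKO over Ctrl was −0.11, so a ratio of 0 lies slightly above the median gene.

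Together the 35 genes made up 2025 CPM in the library labelled Ctrl and 2144 CPM in the library labelled cKO, and most of this was a single gene. Ranbp1, a partner of the Ran GTPase in nuclear transport and spindle assembly, stood at 1438 CPM (1431 to 1445) and 1539 CPM (1533 to 1546). Dgcr6 followed with 110 and 122 CPM, then Mrpl40, a protein of the large mitochondrial ribosomal subunit, with 57.8 and 78.7 CPM, Ufd1l, a cofactor of the Vcp segregase, with 41.2 and 49.0 CPM, and Dgcr2, a membrane protein, with 34.3 and 22.9 CPM. This is the order in the library labelled Ctrl. In the library labelled cKO, Tbx1 (44.8 CPM) was the fifth, and Cdc45 (29.7 CPM) and Dgcr8 (23.7 CPM) also stood above Dgcr2. At least 10 CPM were reached by 21 genes in the library labelled Ctrl and by 20 in the other, and at least 30 UMIs by 30 genes in each. The remaining 5 genes were at the limit of detection. Tssk2, a testis-specific kinase, had no UMI in either library, which at a limit of 3 counts allows up to 0.0255 and 0.022 CPM. Serpind1, which codes for heparin cofactor II, had 3 and 4 UMIs, Aifm3 had 3 and 7, the ATP receptor gene P2rx6 had 7 and 6, and the transporter gene Slc7a4 had 8 and 9.

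**Figure D1:**
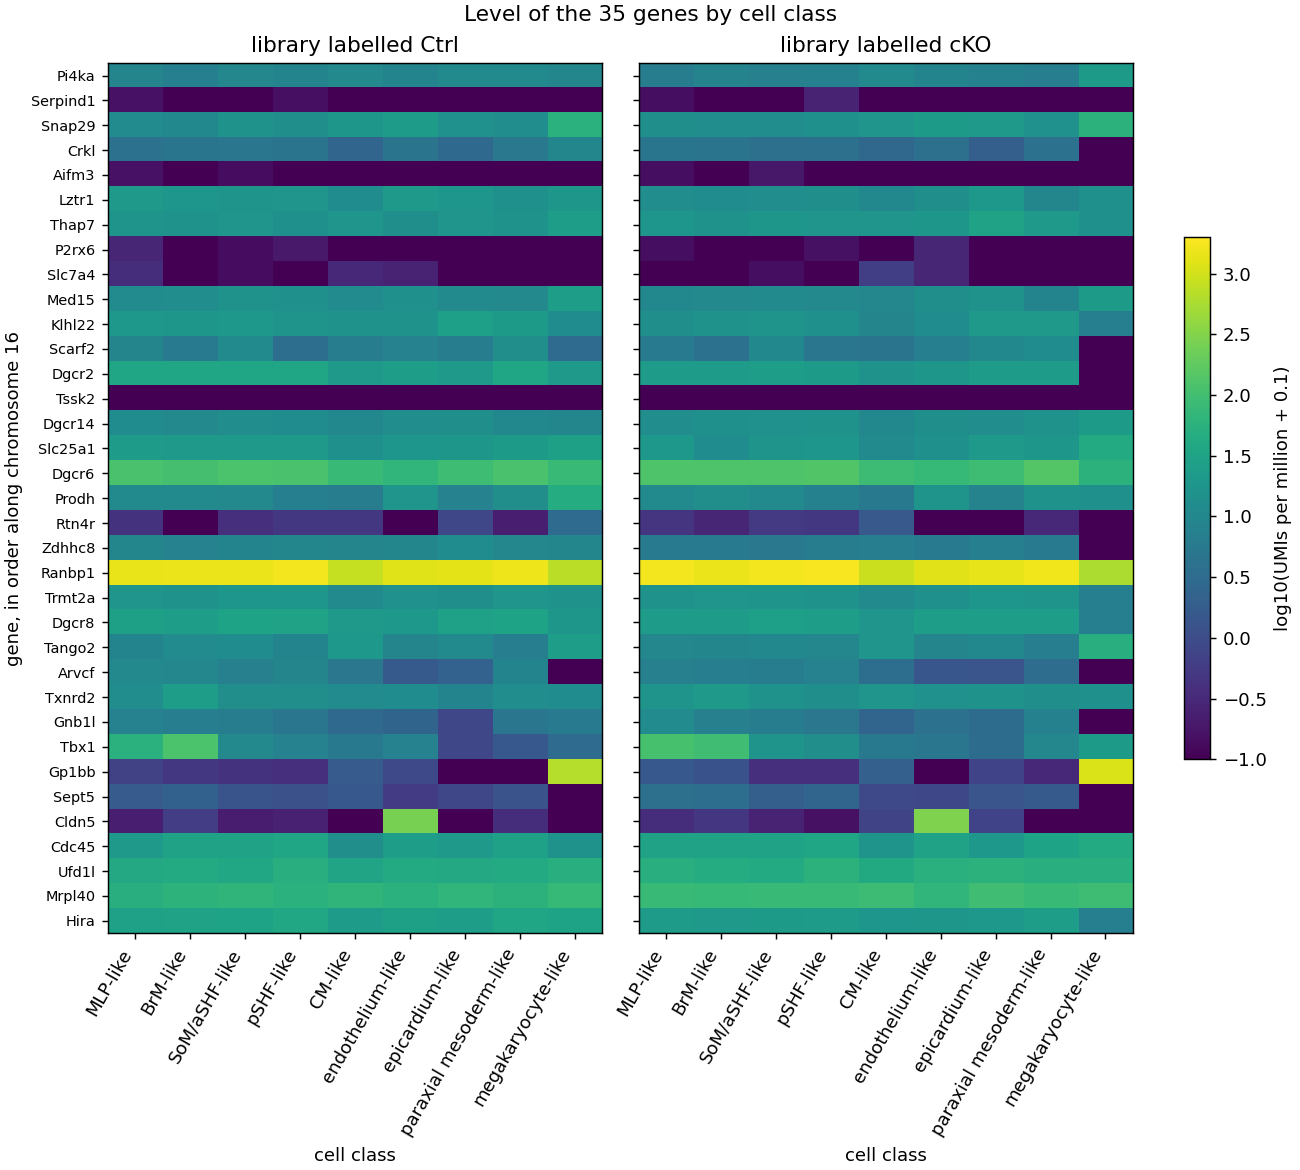
Level of each of the 35 genes (rows, in order along chromosome 16) in 9 cell classes (columns) for each library, as colour on a log10 scale of CPM plus 0.1. Most rows are nearly even from left to right, while Tbx1 is high in MLP-like and BrM-like cells, Cldn5 in endothelium-like cells (260 and 293 CPM) and Gp1bb in the 13 and 9 megakaryocyte-like cells.

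For most of the detected genes no class stood far above the median class. Over the 8 classes with at least 1000000 UMIs in the library labelled Ctrl, the highest class stood less than 1.5-fold above the median class for 19 of the 30 genes with 30 UMIs or more, and over 9 classes in the library labelled cKO this held for 17 of 30. No share of all genes is given beside these counts. The highest class was the same in both libraries for 12 of the 30 genes. Dgcr14, for example, ranged only from 10.0 CPM in paraxial mesoderm-like cells to 13.5 CPM in epicardium-like cells of the library labelled Ctrl, and its highest class stood 1.11-fold above the median class there and 1.18-fold in the library labelled cKO. Thap7, a zinc finger factor that binds histone tails, ranged from 13.7 to 17.3 CPM in the library labelled Ctrl, but from 14.7 to 29.5 CPM in the other, where epicardium-like cells were the highest. Ranbp1 was lowest in CM-like cells of the library labelled Ctrl, with 841 CPM (816 to 867), and highest in pSHF-like cells, with 1650 CPM (1632 to 1667). The highest over the median class does not show a class with little of a gene. In the library labelled cKO, Zdhhc8 had 0.253 CPM in erythroid-like cells, though its highest class stood 1.16-fold above the median class.

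A few genes marked cell types. Cldn5 codes for claudin 5, a tight junction protein of blood vessels. In the library labelled Ctrl, 1678 of its 1697 UMIs lay in endothelium-like cells (98.9%, exact binomial interval 98.3 to 99.3), and in the library labelled cKO 1586 of 1620 (97.9%, 97.1 to 98.5). Its level there was 260 CPM (248 to 273) and 293 CPM (279 to 308), and 1 of the 2 endothelium-like clusters carried it. Cluster 14 (226 and 227 cells) had 417 and 460 CPM, and cluster 20 (140 and 153 cells) had 9.68 and 11.5 CPM, so shares of cells in the class depend on both. In each of the other 5 compared classes it had between 0 and 6 UMIs in a library. After each cell had been thinned to 5000 UMIs, 46.8% (41.6 to 52.1) and 47.0% (41.8 to 52.3) of endothelium-like cells had a Cldn5 UMI, against 58.5% and 59.5% before thinning, while in MLP-like cells, which should lack it, the thinned shares were 0.111% and 0.0742%, at median depths of 16529 and 13785 UMIs for endothelium-like and 15344.5 and 15286.5 UMIs for MLP-like cells. Gp1bb, a subunit of the platelet receptor for von Willebrand factor, had 212 of its 261 UMIs in 13 megakaryocyte-like cells of the library labelled Ctrl (81.2%, 76.0 to 85.8) and 156 of 254 in 9 such cells of the library labelled cKO (61.4%, 55.1 to 67.4). Each of those cells had a Gp1bb UMI. Gp1bb overlaps Sept5 by 593 bases on the same strand, so reads of either gene may be counted to the other, and this was not tested. Sept5, a septin of exocytosis, had 0 UMIs in the megakaryocyte-like cells of both libraries, which allows up to 9.22 and 21.6 CPM, well above its level in all kept cells.

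Smaller contrasts, read over the classes with at least 1000000 UMIs, were seen for single genes. Tango2, a gene linked in people to metabolic crises with cardiac arrhythmia, was highest in CM-like cells of the library labelled Ctrl at 19.3 CPM, 1.58-fold above the next class, and stood at 17.5 CPM in CM-like cells of the other library. In the erythroid-like cells of the library labelled cKO it reached 55.1 CPM, so its level over all kept cells there (11.9 CPM, against 10.3 CPM in the other library) includes a cell type the library labelled Ctrl lacked. Txnrd2, the mitochondrial thioredoxin reductase, was highest in BrM-like cells of the library labelled Ctrl (24.4 CPM, 1.83-fold above the next class). In the library labelled cKO its highest level was 36.9 CPM in erythroid-like cells, with BrM-like cells next at 21.5 CPM. Snap29, a SNARE protein of vesicle fusion, was highest in endothelium-like cells of both libraries, at 23.7 and 22 CPM. Prodh, proline dehydrogenase, was also highest there, with 17.4 and 16.7 CPM. For both genes the interval overlapped that of the next class in each library, so the order is not resolved. The megakaryocyte-like cells, with fewer than 1000000 UMIs, had 55.3 and 57.5 CPM of Snap29 and 46.1 and 14.4 CPM of Prodh. Arvcf, a catenin of the p120 family that binds classical cadherins, stood at only 1.55 and 1.30 CPM in endothelium-like cells, against 10.5 and 7.25 CPM in MLP-like cells. Scarf2, a scavenger receptor family member, was highest in paraxial mesoderm-like cells of both libraries, with 13.3 and 12.2 CPM, most of it in cluster 16 (19.9 and 15.6 CPM) rather than cluster 21 (3.55 and 7.33 CPM). The unnamed clusters 15 (25.1 and 17.6 CPM) and 19 (15.1 and 14.6 CPM) and the SoM/aSHF-like cluster 5 (16.6 and 14.3 CPM) stood above the class level. In the library labelled Ctrl alone, so did the unnamed clusters 2 (13.6 CPM) and 3 (15.7 CPM).

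Across clusters, the levels of Cdc45 and Ranbp1 went with those of the replicative helicase. Over the 25 clusters with at least 1000000 UMIs in the library labelled Ctrl, the log2(CPM + 1) of Cdc45, which loads with the Mcm2 to Mcm7 helicase at replication origins, correlated with the same measure of the summed Mcm2 to Mcm7 (Pearson r = 0.78, Spearman rho = 0.73). Over 26 clusters in the library labelled cKO these values were 0.72 and 0.65. Ranbp1 gave r = 0.83 and 0.81 (rho = 0.71 and 0.63) and Dgcr6 0.59 and 0.62 (rho = 0.62 and 0.62). Trmt2a, a tRNA methyltransferase, gave 0.79 and 0.66 (rho = 0.71 and 0.48), and Dgcr8 0.68 and 0.67, with a weaker rho in the library labelled cKO (0.69 and 0.42). Tango2 gave −0.55 and −0.64 (rho = −0.39 and −0.59). These are descriptions across clusters that share a library and differ in depth, not across samples.

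Tbx1 was high in MLP-like and BrM-like cells and low in the other compared classes, and the library with the higher level was not the same in both. BrM-like cells of the library labelled Ctrl had 121 CPM (114 to 128, 1210 UMIs) and its MLP-like cells 56.5 CPM (52.8 to 60.4, 870 UMIs), and these intervals did not overlap. SoM/aSHF-like cells followed with 10.4 CPM (9.17 to 11.8), then pSHF-like cells with 7.93 CPM (6.76 to 9.25), endothelium-like cells with 7.92 CPM (5.89 to 10.4) and CM-like cells with 5.43 CPM (3.58 to 7.90). Neighbours in that lower part of the order overlapped in their intervals, so their order is not resolved. In the library labelled cKO the order of the leading classes was turned: MLP-like cells had 114 CPM (109 to 118, 2525 UMIs) and BrM-like cells 94.8 CPM (89.0 to 101, 1019 UMIs). Tbx1 was thus 2.01-fold higher in MLP-like cells of the library labelled cKO (log2 ratio 1.01, 0.90 to 1.12) and lower in its BrM-like cells (log2 ratio −0.35, −0.47 to −0.23). The 3′ counts do not separate intact transcripts from those of a recombined allele, so the level of Tbx1 does not check the labels of the libraries. Marker sums of the same cells differed as well. The 9 MLP-like markers summed to 665 and 405 CPM in MLP-like cells, and the 7 markers of paraxial mesoderm to 90.1 and 185 CPM there, with Meox1 in both lists. In BrM-like cells the 6 BrM-like markers summed to 904 and 449 CPM. These lists served to name the clusters, and their part in the Tbx1 values was not tested.

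The same contrast appeared in the shares of cells. After thinning to 5000 UMIs, 24.4% of MLP-like cells held Tbx1 in the library labelled Ctrl (21.7 to 27.4, 900 cells) and 39.7% in the library labelled cKO (37.1 to 42.4, 1347 cells). In BrM-like cells the shares were 43.6% (39.3 to 48.0, 525 cells) and 29.5% (26.2 to 33.0, 715 cells). Among classes with little Tbx1, CM-like cells had 2.22% and 1.74%, and paraxial mesoderm-like cells 0.258% (0.00654 to 1.43) and 3.68% (1.85 to 6.49). CM-like cells were not a clean background, since their 3 clusters had 1.27, 6.26 and 12 CPM of Tbx1 in the library labelled Ctrl, while its epicardium-like cells had 1 UMI (0.713 CPM). Without thinning these shares were 56.6% and 66.5% in MLP-like, 80.3% and 53.5% in BrM-like and 5.86% and 4.76% in CM-like cells.

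The single clusters gave the same directions in both leading classes. The 3 MLP-like clusters had 55.2, 56.4 and 59.7 CPM of Tbx1 in the library labelled Ctrl and 115, 134 and 99.5 CPM in the library labelled cKO. Both BrM-like clusters were lower in the library labelled cKO (129 to 104 CPM and 107 to 81.0 CPM). Among the unnamed clusters, 3 had Tbx1 well above the level of CM-like cells. Cluster 3, led by Crym, Fst and Ebf2, had 54.7 and 107 CPM. Cluster 15, led by Cbr3, Lum and Zic1, had 45.9 and 132 CPM, and cluster 19, led by Tagln, Anxa3 and Cxcl12, had 35.8 and 83.8 CPM, and in all 3 the cKO level was the higher, with intervals of the ratio clear of 0. Paraxial mesoderm-like cells had 11 UMIs (1.43 CPM) in the library labelled Ctrl and 49 UMIs (9.67 CPM) in the other.

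**Figure D2:**
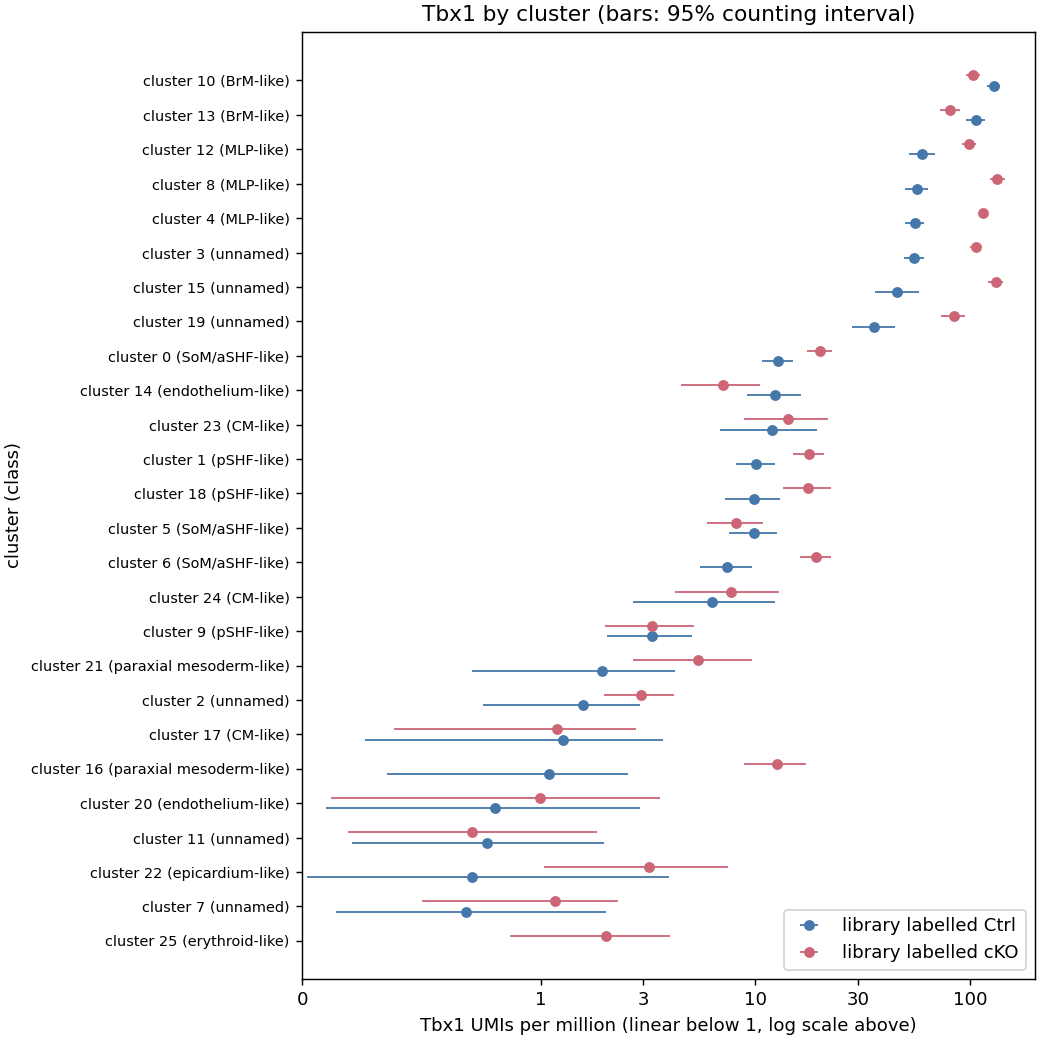
Tbx1 level in CPM for each cluster with at least 1000000 UMIs (linear below 1 and logarithmic above), with 95% counting intervals, for the library labelled Ctrl (blue) and the library labelled cKO (red). The 2 BrM-like clusters lie to the left in red, and the 3 MLP-like clusters and the unnamed clusters 3, 15 and 19 lie to the right in red.

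In SoM/aSHF-like and pSHF-like cells Tbx1 was also past 1.5-fold, from 10.4 to 16.9 CPM (log2 ratio 0.70, 0.47 to 0.93) and from 7.93 to 13 CPM (log2 ratio 0.71, 0.41 to 1.01), but these values were not even within the class. Among SoM/aSHF-like clusters the log2 ratios were 0.65, −0.27 and 1.38, and among pSHF-like clusters 0.81, 0.00 and 0.84. The SoM/aSHF-like value was not stable to the choice of cells: it was 0.18 with presumed doublets kept and −0.21, the opposite direction, with all barcodes kept, in both cases with the clusters rebuilt. The pSHF-like and SoM/aSHF-like values also differed between cells with Xist UMIs and cells with Y-linked UMIs, which come from different embryos of each pool. In cells with Xist UMIs the log2 ratio was 0.08 in pSHF-like and 0.42 in SoM/aSHF-like cells, and in cells with Y-linked UMIs it was 1.49 and 1.10. In MLP-like cells the corresponding values were 1.06 and 0.95, and in BrM-like cells −0.37 and −0.35. CM-like cells showed no detectable difference (27 and 40 UMIs, 5.43 and 5.33 CPM). Endothelium-like cells had 51 and 26 UMIs (7.92 and 4.81 CPM, log2 ratio −0.72, −1.46 to −0.01), lower in the library labelled cKO but below the floor of 10 CPM set for counting.

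The genes next to Tbx1 on the chromosome were low, and in MLP-like cells they lay in the same direction as Tbx1. In GRCm38 coordinates Tbx1 occupies chr16:18580979-18590671. The start site of Gnb1l, a WD40 repeat protein, lies at −93.3 kb from that of Tbx1, and those of Gp1bb and Sept5 lie at 31.7 and 39.3 kb. In MLP-like cells Gnb1l had 123 and 259 UMIs (7.99 and 11.7 CPM, log2 ratio 0.55, 0.23 to 0.87), Gp1bb 9 and 32 UMIs (0.585 and 1.44 CPM, log2 ratio 1.30, 0.20 to 2.55) and Sept5 25 and 83 UMIs (1.62 and 3.74 CPM, log2 ratio 1.20, 0.54 to 1.91). All 3 were thus higher in the library labelled cKO, at levels far below that of Tbx1. Gp1bb and Sept5 overlap on the same strand, so their values may not be separate. In all kept cells Sept5 had 145 and 325 UMIs (1.23 and 2.38 CPM, log2 ratio 0.95, 0.66 to 1.24), below the level floor and with an interval that overlapped that of Tbx1 (26.4 and 44.8 CPM, log2 ratio 0.76, 0.70 to 0.82). Gnb1l was also higher in all kept cells (log2 ratio 0.30, 0.16 to 0.45), while Gp1bb was lower (log2 ratio −0.26, −0.51 to −0.002).

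In the other classes most of these intervals held 0. In BrM-like cells, where Tbx1 was lower in the library labelled cKO, Sept5 had 21 and 38 UMIs (log2 ratio 0.75, −0.06 to 1.59) and Gnb1l had 67 and 80 UMIs (log2 ratio 0.15, −0.34 to 0.64). In pSHF-like cells Sept5 had 22 and 43 UMIs (log2 ratio 1.19, 0.42 to 2.01), while Gnb1l (99 and 87 UMIs) had a log2 ratio of 0.04, with an interval of −0.39 to 0.47. Among the genes with 30 UMIs or more over both libraries, those whose start site lay within 300 kb of that of Tbx1 had a median log2 ratio of 0.47 in MLP-like cells (10 genes without Tbx1) and those farther away −0.20 (17 genes). The nearer genes also had the higher median in each of the other compared classes, whichever way Tbx1 lay: 0.00 against −0.07 in BrM-like, 0.05 against −0.24 in SoM/aSHF-like, 0.09 against −0.16 in pSHF-like, 0.09 against −0.19 in CM-like and 0.23 against −0.06 in endothelium-like cells. Dgcr8, at −301 kb and with a log2 ratio below 0 in 5 of the 6 classes, fell just outside this limit. Medians under other limits are not given. With the floor of 10 CPM as well, the order turned in BrM-like cells (−0.09 against 0.00), and the nearer genes had 0.40 in MLP-like cells (7 genes) and 0.34 in CM-like cells (6 genes). The other measured genes of chromosome 16 had a median of −0.15 in MLP-like cells (235 genes) and −0.16 in all kept cells (241 genes).

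**Figure D3:**
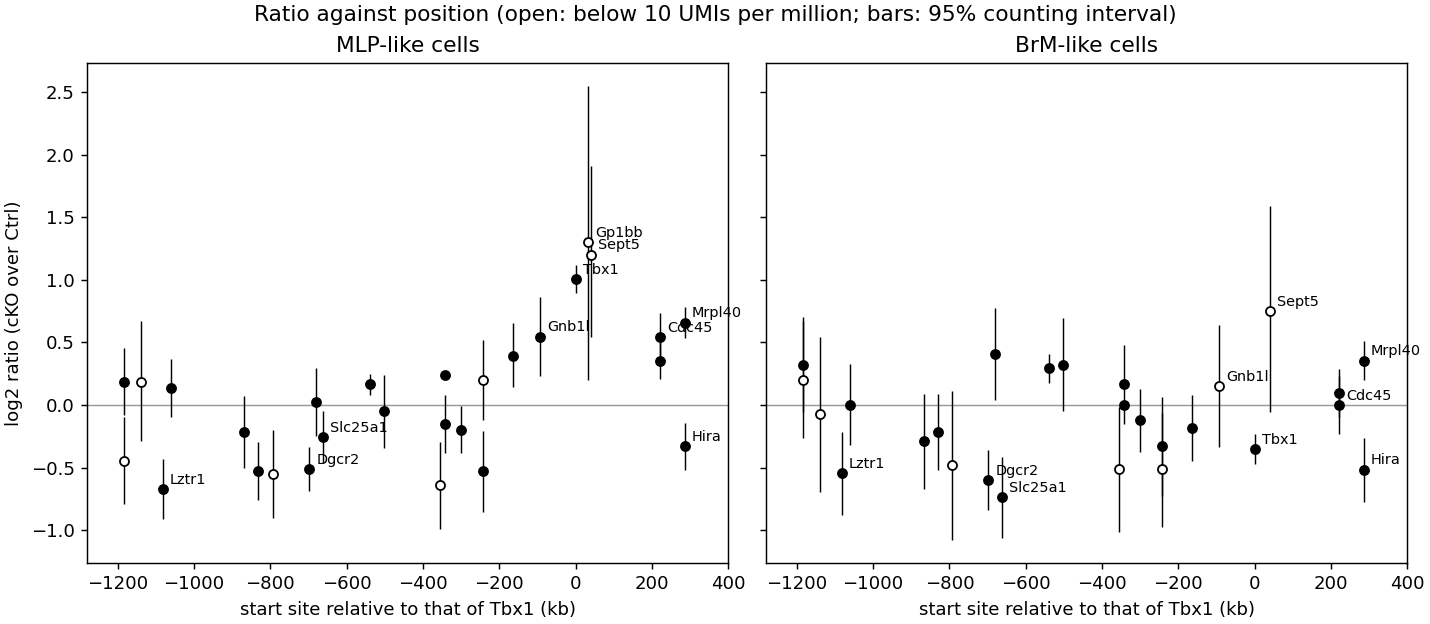
Log2 ratio of cKO over Ctrl for each gene with at least 30 UMIs (vertical axis, bars are 95% counting intervals) against the distance of its start site from that of Tbx1 in kb, in MLP-like cells (left) and BrM-like cells (right). Open circles are genes below 10 CPM. In MLP-like cells Tbx1, Gnb1l, Gp1bb and Sept5 lie above 0, and in BrM-like cells Tbx1 lies at −0.35.

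How many of the 35 genes differed between the libraries was counted at 1.5-fold or more, with at least 10 CPM in the higher library and 30 UMIs over both, and read beside the share of all genes past the same limits. In all kept cells 21 of the 35 genes could be counted. Tbx1 alone was higher in the library labelled cKO, where 1.59% of 7840 genes were, and none was lower, where 10% of all genes were. Dgcr2 lay just inside the limit (34.3 and 22.9 CPM, log2 ratio −0.58, −0.65 to −0.52). Zdhhc8 was past the fold but below the floor of 10 CPM (9.54 and 6.28 CPM, log2 ratio −0.60, −0.73 to −0.47). In MLP-like cells (21 genes counted) Tbx1 and Mrpl40 were higher and Lztr1 was lower, against 2.35% and 13.2% of all genes. In BrM-like cells (20 counted) none was higher (3.97% of all genes), and Dgcr2 and Slc25a1 were lower (14.3%). Tbx1 alone was higher in SoM/aSHF-like cells (21 counted, 1.35%), a direction that turned with all barcodes kept, and none was lower (8.39%). In pSHF-like cells (18 counted) Tbx1 was higher (1.71%), and Dgcr2 and Hira were lower (9.97%). In CM-like cells (19 counted) Txnrd2 was higher (2.9%) and Klhl22 was lower (10.7%). In endothelium-like cells (19 counted) no gene was past the fold in either direction (1.89% and 12.2% of all genes).

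The median log2 ratio of the counted genes was 0.07 in all kept cells. By class it was 0.09 in endothelium-like, −0.02 in CM-like, 0.03 in pSHF-like, −0.12 in SoM/aSHF-like, −0.06 in BrM-like and 0.03 in MLP-like cells. Over all measured genes it lay between −0.12 and −0.08 in these classes. Of the 30 genes with 30 UMIs or more over both libraries, 12 had an interval above 0 in all kept cells, against 21.5% of the 15216 genes with as many UMIs, 14 had an interval below 0, against 48.9%, and 4 had an interval that held 0.

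**Figure D4:**
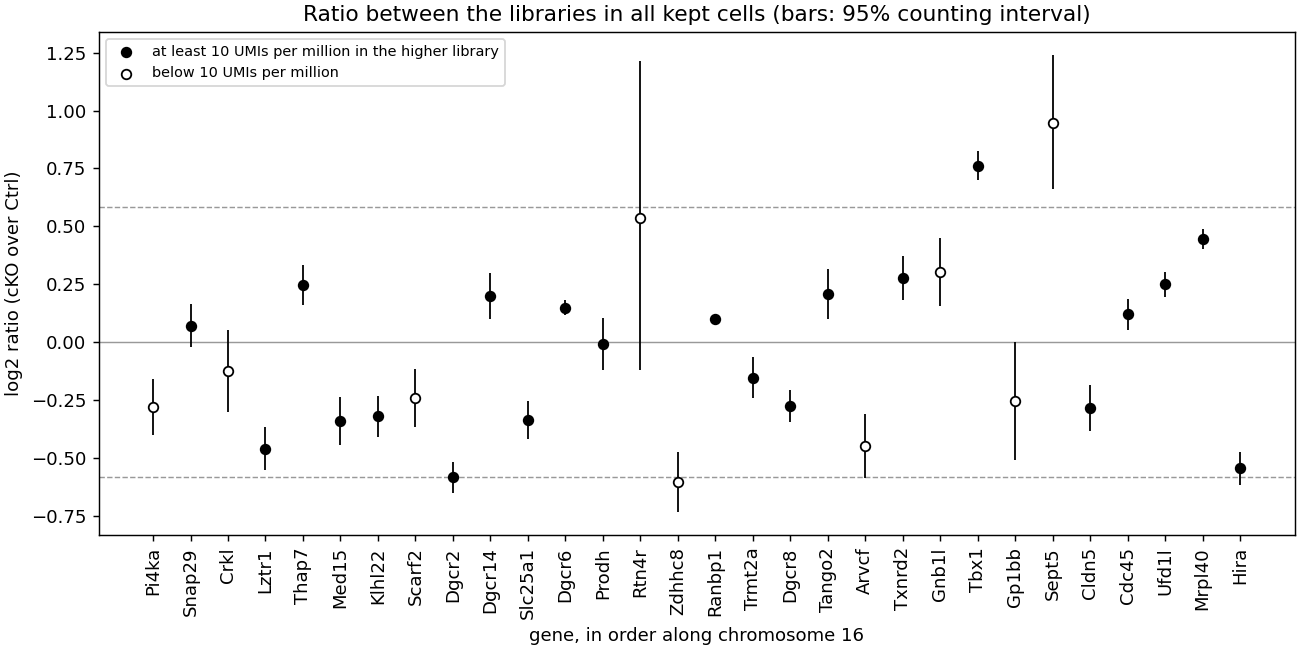
Log2 ratio of cKO over Ctrl in all kept cells for the 30 genes with at least 30 UMIs, in order along chromosome 16, with 95% counting intervals. Dashed lines mark 1.5-fold, filled circles reach 10 CPM in the higher library, and Tbx1 (0.76) is the filled circle beyond a dashed line.

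Several genes had a log2 ratio of the same sign in every class, though not always with an interval clear of 0. Of the 25 genes with 30 UMIs in each of the 6 classes, 6 had a ratio above 0 in all 6. The interval was above 0 in 6 classes for Mrpl40, in 5 each for Dgcr6, Ufd1l and Ranbp1, in 2 for Thap7 and in 1 for Cdc45. Another 7 had a ratio below 0 in all 6 classes. The interval was below 0 in 6 classes for Dgcr2 and Hira, in 5 for Lztr1, in 4 each for Zdhhc8 and Klhl22, in 3 for Slc25a1 and in 2 for Med15. Of all 9467 genes read in the same way, 16.1% had a ratio above 0 and 36.4% a ratio below 0 in all 6 classes. Across all measured genes the ratio went with the length of the gene on the chromosome (Spearman rho = −0.44 in all kept cells over 7801 genes, which are not independent replicates): the shortest genes (the lowest 25%, up to 10.1 kb) had a median log2 ratio of 0.06, and the longest (the highest 25%, from 56.8 kb) −0.35. Among the genes of the interval that could be counted rho was −0.26 in all kept cells (21 genes), and by class it lay between −0.61 in pSHF-like (18 genes) and −0.15 in CM-like cells (19 genes), with −0.52 in SoM/aSHF-like and −0.34 in BrM-like cells. The part of gene length in the ratios given here was not tested.

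Among the nuclear genes, Hira, which deposits histone H3.3 outside replication, was lower in the library labelled cKO in all 6 classes. It went from 36.9 to 23.2 CPM in pSHF-like cells (759 and 408 UMIs, log2 ratio −0.67, −0.85 to −0.49), from 30.9 to 22 CPM in SoM/aSHF-like and from 29.2 to 23.2 CPM in MLP-like cells. Its gene spans 93.6 kb. Dgcr8, which binds primary microRNA hairpins for Drosha, had intervals below 0 in MLP-like, SoM/aSHF-like and pSHF-like cells (log2 ratios −0.20, −0.21 and −0.26) and intervals that held 0 in BrM-like and CM-like cells. It was higher in endothelium-like cells (19.2 and 25 CPM, log2 ratio 0.38, 0.01 to 0.74), mainly in cluster 20 (0.79, 0.20 to 1.39) and less in cluster 14 (0.11, −0.36 to 0.58). Med15, a subunit of the Mediator tail, was lower in SoM/aSHF-like (log2 ratio −0.50) and pSHF-like cells (−0.47), and its interval held 0 in the other 4 classes.

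Among the genes of replication, transport and protein turnover, Cdc45 went from 20.7 to 30.2 CPM in MLP-like cells (319 and 670 UMIs, log2 ratio 0.54, 0.35 to 0.74), just short of 1.5-fold. This was uneven among the MLP-like clusters, with log2 ratios of 0.41 in cluster 4, 1.20 in cluster 8 and 0.14 (−0.16 to 0.44) in cluster 12, which had the highest level of Cdc45 and went from 215 to 447 cells. Cdc45 had equal levels in BrM-like cells (30.3 and 30.3 CPM). Ranbp1 differed little everywhere, with log2 ratios from 0.00 in BrM-like to 0.24 in MLP-like cells. Ufd1l had log2 ratios from 0.10 in BrM-like to 0.36 in CM-like cells. Klhl22, an adaptor of the Cul3 ubiquitin ligase, went from 15.3 to 9.06 CPM in CM-like cells (76 and 68 UMIs, log2 ratio −0.75, −1.25 to −0.26), but this was −0.35 in cells with Xist UMIs and −1.62 in cells with Y-linked UMIs.

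Among the mitochondrial genes, Mrpl40 was higher in the library labelled cKO in each class, most in MLP-like cells (51.9 and 82.0 CPM, log2 ratio 0.66, 0.54 to 0.78) and least in endothelium-like cells (54.8 and 68.3 CPM, log2 ratio 0.32). Slc25a1, which exports citrate from mitochondria for lipid synthesis, went from 20.3 to 12.2 CPM in BrM-like cells (203 and 131 UMIs, log2 ratio −0.74, −1.07 to −0.41) and from 23.0 to 19.2 CPM in MLP-like cells. Its log2 ratio in endothelium-like cells was −0.33 over all cells, but −1.05 in cells with Xist UMIs and 0.28 in cells with Y-linked UMIs. Txnrd2 went from 11.7 to 17.6 CPM in CM-like cells (58 and 132 UMIs, log2 ratio 0.59, 0.14 to 1.07). Prodh had intervals that held 0 in all 6 classes.

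Among the signalling and membrane genes, Lztr1, a Cul3 adaptor that directs Ras proteins to degradation, went from 20 to 12.5 CPM in MLP-like cells (307 and 278 UMIs, log2 ratio −0.67, −0.91 to −0.43). Dgcr2 was lower in all 6 classes, past 1.5-fold in BrM-like cells (35.1 and 23.2 CPM, log2 ratio −0.60, −0.84 to −0.36) and pSHF-like cells (34.5 and 22.3 CPM, log2 ratio −0.63, −0.81 to −0.45). Zdhhc8, a palmitoyltransferase, had 8.10 to 9.49 CPM in the 6 classes of the library labelled Ctrl and 5.15 to 6.80 CPM in those of the library labelled cKO. Its interval held 0 in CM-like and endothelium-like cells and lay below 0 in the other 4. Crkl had 507 and 541 UMIs in all kept cells (4.31 and 3.96 CPM), and its interval held 0 there (log2 ratio −0.12, −0.30 to 0.05) and in all 6 classes. Rtn4r, a receptor for inhibitors of axon growth, had 32 and 54 UMIs in all. Cldn5 went from 260 to 293 CPM in endothelium-like cells (log2 ratio 0.17), while in all kept cells it was lower in the library labelled cKO (14.4 and 11.9 CPM, log2 ratio −0.28). Endothelium-like cells were 5.55% of kept cells in the library labelled Ctrl and 4.24% in the other.

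There are 5 head-to-head pairs among these genes, on opposite strands with their starts close together or overlapping. The bases between the start sites of 3 of them, taken from RefSeq promoter windows for GRCm38, are shown because the genes on either side share them and yet differed in level or in ratio. For Ranbp1 and Trmt2a the RefSeq gene table has an earlier start of Trmt2a, at 18248847, inside the stretch shown. The stretches are written on the forward strand, with the gene on the left transcribed leftwards, and the capitals mark matches, on either strand, to CCAAT, to the GC box GGGCGG and to GCATGCGC, a word bound by NRF1.

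Mrpl40 and Hira, chr16:18876638-18876749, 112 bases, 75.0% GC: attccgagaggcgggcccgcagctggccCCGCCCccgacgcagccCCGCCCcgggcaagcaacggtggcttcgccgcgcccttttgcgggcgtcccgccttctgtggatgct

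Ranbp1 and Trmt2a, chr16:18248695-18248882, 188 bases, 70.2% GC: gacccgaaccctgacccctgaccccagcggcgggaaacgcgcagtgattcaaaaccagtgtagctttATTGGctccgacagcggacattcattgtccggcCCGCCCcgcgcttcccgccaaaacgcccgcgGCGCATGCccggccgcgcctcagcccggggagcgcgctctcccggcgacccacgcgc

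Tango2 and Arvcf, chr16:18348099-18348181, 83 bases, 57.8% GC: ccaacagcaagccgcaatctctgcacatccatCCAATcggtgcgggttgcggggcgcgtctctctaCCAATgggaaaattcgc

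The stretch between Mrpl40 and Hira held 2 GC boxes. That between Ranbp1 and Trmt2a held a CCAAT, a GC box and the NRF1 word, and that between Tango2 and Arvcf held 2 CCAAT words. In the 300-base promoter windows of RefSeq, which exist for 33 of the 35 genes, a GC box was found in 75.8% of these genes (35.9% of 27025 genes), a CCAAT in 42.4% (37.9%), GCATGCGC in 12.1% (2.8%), the ETS core CCGGAAG in 21.2% (9.12%) and TATAAA in 12.1% (14.2%). The T-box word AGGTGTGA was in none of the 33 windows and in 1.27% of all windows. The median GC content of the windows was 64.3% for these genes and 52.7% for all genes.

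The Mrpl40 and Hira pair differed most between the libraries. In the library labelled Ctrl there were between 1.54 Mrpl40 UMIs per Hira UMI in pSHF-like cells and 2.77 in CM-like cells, and in the library labelled cKO between 3.53 in MLP-like and 5.04 in CM-like cells, so the libraries did not overlap in any of the 6 classes. Mrpl40 spans 4.62 kb and Hira 93.6 kb. The Ranbp1 and Trmt2a pair shares its stretch of bases at very unequal levels, with 74.7 to 95.2 Ranbp1 UMIs per Trmt2a UMI in the library labelled Ctrl and 82.8 to 115 in the library labelled cKO. The Cdc45 and Ufd1l pair stayed between 0.41 and 0.78 in both libraries. Tango2 and Arvcf parted by cell type, with 0.81 Tango2 UMIs per Arvcf UMI in MLP-like cells of the library labelled Ctrl against 5.70 in its endothelium-like cells, and 1.35 against 6.86 in the library labelled cKO. Pi4ka, a phosphatidylinositol 4-kinase, and Snap29 ranged from 0.36 to 0.74 in the library labelled Ctrl and from 0.39 to 0.65 in the other.

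**Figure D5:**
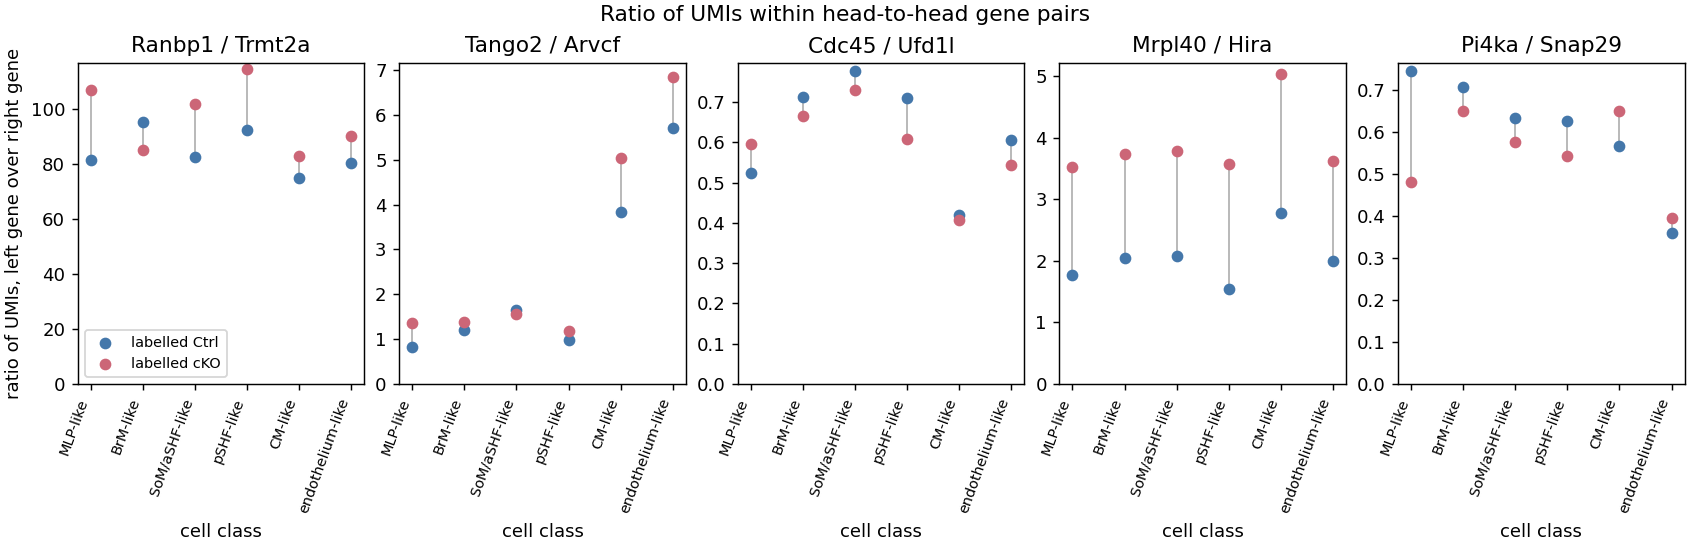
Ratio of UMIs of the left gene to the right gene of each head-to-head pair (vertical axes from 0, with a separate scale per pair) in 6 cell classes, for the library labelled Ctrl (blue) and the library labelled cKO (red). The libraries are apart in every class for Mrpl40 over Hira, and the classes are apart for Tango2 over Arvcf.

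The known partners of these proteins were read from fixed lists, 122 genes in all, of which 109 could be counted in all kept cells, 1 being higher in the library labelled cKO (1.59% of all genes) and 11 lower (10% of all genes). In MLP-like cells 3 of 108 were higher (2.35% of all genes) and 9 lower (13.2%). These counts are near or below the background, and the partners named next are single values. The 46 other large-subunit mitochondrial ribosomal genes counted had a median log2 ratio of 0.19 in MLP-like cells, below the 0.66 of Mrpl40, and only Mrpl39 among them was past 1.5-fold (32.7 and 55.1 CPM). None of the 10 replication partners of Cdc45 was past the fold there, and their median was −0.04. The 6 partners of Hira (histone H3.3 genes and its chaperone complex) had a median of −0.11 in all kept cells, with none past the fold. Of the Pi4ka complex, Ttc7b, Fam126a and Efr3a, the 3 that could be counted, were lower in the library labelled cKO in all kept cells (log2 ratios −0.71, −0.67 and −0.65). Of the 7 partners of Crkl counted, Crk, Dock1 and Cbl were lower there, beside the 10% of all genes. Vcp, the segregase that Ufd1l serves, was higher in MLP-like cells (165 and 253 CPM, log2 ratio 0.62), and about as much in SoM/aSHF-like (0.60) and CM-like cells (0.64). Rit1, a Ras-like target of Lztr1, was higher in MLP-like cells (11 and 16.6 CPM, log2 ratio 0.59), and about as much in pSHF-like cells (0.65) and in all kept cells (0.64). Ctnnd1, the p120 catenin related to Arvcf, was lower in all 6 classes by about the same amount (log2 ratios −0.99 to −0.83) and in all kept cells (52.0 and 27.6 CPM, log2 ratio −0.92).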

How the data were processed

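The deposited files hold raw UMI counts per gene and cell for 2 libraries, 1 per group, each from pooled E9.5 embryos; the submitters' processing notes name Cell Ranger 3.1.0 and mm10. The library labelled Ctrl held 7418 barcodes and 132017331 UMIs (median 16786 per cell), and the library labelled cKO 10281 barcodes and 162874391 UMIs (median 14341). Cells with at least 1000 genes and at most 10% mitochondrial UMIs were kept, and presumed doublets (416 and 804, the highest Scrublet scores at a rate of 0.8% per 1000 cells) were removed, because Scrublet's own threshold called 0 and 843. Cells were integrated and clustered with Seurat 5.3.0 in R 4.3.3 (2000 variable genes, 30 dimensions, resolution 1). The 35 genes, and genes at least 2-fold apart between the libraries, were left out of the clustering. Of 28 clusters, 22 were named where at least 3 markers and over 60% of a list were met and no other list had more markers among the 10 leading genes. These naming thresholds were set after the data were seen, and a different result from the study may come from the rebuilt names.

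UMIs were summed by library and class and divided by the class total, using Python 3.11.15, numpy 2.4.6, scipy 1.17.1 and scanpy 1.11.5. Exact Poisson intervals were used for levels, exact conditional binomial intervals for ratios and Clopper-Pearson intervals for shares, all at 95% and for counting error only. With 1 library per group no test was run. A gene was counted as apart at 1.5-fold or more, with 10 CPM in the higher library and 30 UMIs over both. A count of 0 was read as a limit of 3 counts. Shares of cells with a UMI were taken after thinning to 5000 UMIs per cell. The ratio intervals were checked on simulated Poisson counts, the model they assume. That check does not cover spread among cells or embryos.

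Genes named in full are Tbx1, its neighbours, genes past 1.5-fold, the 5 highest, the 5 with the widest contrast between classes and those under 30 UMIs; other genes named were chosen after their values were seen. The set of genes was proposed, and the lists and thresholds chosen, with earlier results of these data known. Coordinates come from RefSeq on GRCm38.p6 and strands from GENCODE.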

Additional observations from a re-analysis of the deposited data

Results flagged for a closer look

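Tbx1 was flagged because its difference between the libraries ran in opposite directions in different cell classes. The log2 ratio of cKO over Ctrl was 1.01 in MLP-like, 0.70 in SoM/aSHF-like and 0.71 in pSHF-like cells, and −0.35 in BrM-like cells, with counting intervals clear of 0 in each. In endothelium-like cells, below 10 CPM, it was −0.72. The SoM/aSHF-like value turned to −0.21 with all barcodes kept. The difference between the classes was not tested, because each group has 1 library.

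Dgcr8 was flagged in the same way. Its log2 ratio was −0.20 in MLP-like, −0.21 in SoM/aSHF-like and −0.26 in pSHF-like cells, and 0.38 in endothelium-like cells, where the lower bound of the interval was 0.01 and cluster 20 (0.79) carried more of it than cluster 14 (0.11). This difference was not tested either.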

How the results depend on the processing

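The log2 ratio of Tbx1 kept its direction under every alternative run in MLP-like cells (0.92 to 1.12) and in BrM-like cells (−0.41 to −0.23). Tbx1 in SoM/aSHF-like cells did not: its log2 ratio of 0.70 turned to −0.21 with all barcodes kept and the clusters rebuilt. Of 551 log2 ratios of 9 named genes under the alternatives, 519 stayed within their counting interval, and among the 12 gene and class values past 1.5-fold only the value just given reversed. Among the smaller differences, 2 changed sign in cells with Y-linked UMIs, Slc25a1 in endothelium-like cells (−0.33 to 0.28) and Txnrd2 in pSHF-like cells (0.09 to −0.12). No paired analysis was possible because each group has 1 library.

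The number of genes at least 1.5-fold apart was small (0 in endothelium-like, 2 in CM-like, 3 in pSHF-like, 1 in SoM/aSHF-like, 2 in BrM-like, 3 in MLP-like and 1 in all kept cells) and moved easily. The share of all genes past the same limits is given only for the main settings, so the counts that follow have no background beside them. A class not named under a setting may have moved as well. With a fold limit looser than 1.5 it was 8 in endothelium-like, 7 in CM-like, 6 in pSHF-like, 6 in SoM/aSHF-like, 9 in BrM-like, 11 in MLP-like and 7 in all kept cells, and at 2-fold it was 0 in CM-like, 0 in pSHF-like, 0 in SoM/aSHF-like, 0 in BrM-like, 1 in MLP-like and 0 in all kept cells. In cells with Xist UMIs it was 2 in endothelium-like, 1 in CM-like, 1 in pSHF-like, 2 in SoM/aSHF-like, 5 in MLP-like and 3 in all kept cells. In cells with Y-linked UMIs it was 5 in endothelium-like, 5 in CM-like, 2 in SoM/aSHF-like, 4 in BrM-like and 3 in all kept cells. Without the level floor, where Sept5 was past the fold in pSHF-like and BrM-like cells as well, the number was 3 in endothelium-like, 3 in SoM/aSHF-like, 6 in MLP-like and 3 in all kept cells. With a floor of 20 CPM it was 0 in CM-like and 0 in SoM/aSHF-like cells. With presumed doublets kept it was 0 in SoM/aSHF-like and 5 in MLP-like cells. Without integration it was 1 in CM-like, 0 in SoM/aSHF-like and 1 in BrM-like cells, and at resolution 0.6 it was 1 in CM-like and 1 in BrM-like cells. The first clustering pass gave 2 in SoM/aSHF-like cells, and centring on the median gene gave 1 in BrM-like cells. Equal weight per cluster gave 1 in CM-like and 0 in SoM/aSHF-like cells. Totals without mitochondrial, ribosomal and haemoglobin genes gave 2 in endothelium-like, 2 in SoM/aSHF-like and 1 in BrM-like cells. The highest class was kept by 29 of 35 genes with doublets kept and by 26 at resolution 0.6. The cause of these shifts was not tested. Depth limits the 5 genes under 30 UMIs, for which no difference was detectable.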
